A study of Mus musculus with 8 samples.

Results

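DNA methylation was examined at the 9 mouse genes that encode the enzymes which write and remove this mark, in hematopoietic stem cells that had lost the autophagy gene Atg12 and in control stem cells. Dnmt1, Dnmt3a, Dnmt3b, Dnmt3l and Uhrf1 were taken as writers, and Tet1, Tet2, Tet3 and Tdg as erasers. The genes were chosen by name, not by any measured value, though with earlier results of these data known. Every CpG from 5 kb before to 5 kb after each gene was taken, both strands were merged, and a CpG was kept when at least 3 mice of each group had 10 or more reads. That kept 1215 of 3468 CpGs that had a listed value in at least 1 mouse, out of 1278034 CpGs kept on chromosomes 1 to 19. Dnmt3a held 338 of them, Tet3 244, Uhrf1 137, Dnmt3b 118, Tet1 114, Dnmt1 108, Tet2 93, Tdg 43 and Dnmt3l 20. Of these CpGs, 1063 had 10 or more reads in all 8 mice.

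The knockout group was 4 Atg12flox/flox:Mx1-Cre mice, numbered 25, 28, 45 and 46. The control group was 4 mice, numbered 1, 34, 36 and 37, which the design text gives as Atg12flox/flox without Cre and the genotype label gives as WT. All 8 mice were C57BL/6 and all received poly(I:C) at 4 weeks of age. Uncultured stem cells, sorted as Lin- cells that were CD150+, Sca-1+ and c-Kit+ but CD48- and Flk2-, were taken from the bone marrow of each mouse 2 to 3 months later, and each library came from 1 mouse. Mx1-Cre answers to interferon in many cell types, so deletion in these mice is not limited to stem cells, and the controls had the poly(I:C) but no Cre. The assay was enhanced reduced representation bisulfite sequencing, which reads CpG-rich restriction fragments and gives, for each cytosine, the share of reads left unconverted by bisulfite. A level is therefore an average over the sorted cells of a mouse, in which fewer methylated cells and fewer methylated alleles per cell cannot be told apart. Bisulfite also does not separate methylated cytosine from the hydroxymethylated form that the Tet enzymes make.

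Dnmt1 copies methylation onto the new DNA strand after replication, and Uhrf1 brings it to half-methylated sites. Dnmt3a and Dnmt3b methylate DNA that was unmethylated before, and Dnmt3l has no catalytic activity of its own but stimulates them, chiefly in germ cells. Tet1, Tet2 and Tet3 oxidise methylated cytosine, and Tdg is the glycosylase that cuts out the more oxidised forms so that repair restores an unmodified base. In blood, Dnmt3a and Tet2 are known as brakes on the self-renewal of stem cells, and both are often mutated in clonal hematopoiesis and myeloid malignancy.

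Each mouse had between 2038266 and 3366162 listed cytosines, and the median coverage of the kept CpGs of the 9 genes was between 232 and 349 reads. The libraries differed in how deeply methylated DNA was read. Median coverage at CpGs of 90% or more in every mouse was divided by that at CpGs of 10% or less in every mouse. The ratio was 0.340, 0.496, 0.555 and 0.456 in knockout mice 25, 28, 45 and 46, against 0.737, 0.260, 0.690 and 0.565 in control mice 1, 34, 36 and 37. Knockout 25 and control 34 were thus lowest in their groups. Cytosines on the Y chromosome were 7.90 to 9.01 per 10000 listed in the knockout mice and 1.16 to 1.83 in the controls. Cytosines on the X chromosome went the other way, at 1.83 to 1.93% of those listed in the knockout mice and 2.42 to 2.54% in the controls. X and Y content thus followed genotype in all 8 mice. The effects of genotype and of whatever sets X and Y content, such as the sex of the mice, cannot be told apart. At the starts of stem cell genes, methylation averaged under 0.25% over the 8 mice at 5 of the 7 listed markers (Mecom, Kit, Hlf, Cd34 and Procr), the other 2 not being measured. Of the 4 listed B cell markers only 1 was measured, Cd22, at 85.8% in knockout and 92.6% in control mice over 3 CpGs. Of the 3 erythroid markers 2 were measured. Epor stood at 26.7% and 18.1% over 3 CpGs, and Klf1 at 0.459% and 0.575% over 15. No start of the T cell or myeloid markers was measured.

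The starts of these genes were compared first, as the 300 bases around them show the kind of DNA involved. RefSeq lists 16 start sites for the 9 genes in GRCm38.p6, and 7 of the promoter sequences are printed below from 250 bases before to 50 bases after the start, 5′ to 3′ on the gene's strand. Capitals mark CpGs that were kept here, and a lower-case cg was not kept. The 2 Dnmt1 starts are shown as a CpG-poor and a CpG-dense start of the same gene, and the Dnmt3a start because it lies inside the gene. Dnmt3l is shown as the CpG-poor exception among the main starts, and Tet2 as the densest sequence. Tet3 and Uhrf1 are shown for a CpG above the others, at a mean of 7.98% and 6.40% over the 8 mice.

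Dnmt1 upstream start, chr9:20959839-20960138 (minus strand, GRCm38.p6): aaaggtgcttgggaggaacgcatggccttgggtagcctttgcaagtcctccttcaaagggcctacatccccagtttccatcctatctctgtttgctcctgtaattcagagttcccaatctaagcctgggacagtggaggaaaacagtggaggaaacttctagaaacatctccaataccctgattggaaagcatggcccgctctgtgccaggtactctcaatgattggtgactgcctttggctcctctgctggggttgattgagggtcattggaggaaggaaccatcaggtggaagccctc
Dnmt1 downstream start, chr9:20952574-20952873 (minus strand, GRCm38.p6): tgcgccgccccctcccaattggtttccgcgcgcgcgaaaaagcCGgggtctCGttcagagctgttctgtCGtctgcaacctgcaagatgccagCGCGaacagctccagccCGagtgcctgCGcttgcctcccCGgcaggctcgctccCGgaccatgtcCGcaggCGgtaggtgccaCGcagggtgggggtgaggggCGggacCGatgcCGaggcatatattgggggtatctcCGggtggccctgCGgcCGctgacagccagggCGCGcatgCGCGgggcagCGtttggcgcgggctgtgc
Dnmt3a internal start, chr12:3891494-3891793 (plus strand, GRCm38.p6): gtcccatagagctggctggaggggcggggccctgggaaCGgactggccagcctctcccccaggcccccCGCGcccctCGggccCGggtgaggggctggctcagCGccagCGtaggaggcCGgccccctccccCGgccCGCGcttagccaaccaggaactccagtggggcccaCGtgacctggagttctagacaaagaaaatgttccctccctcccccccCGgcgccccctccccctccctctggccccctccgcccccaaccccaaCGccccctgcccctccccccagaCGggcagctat
Dnmt3l first start, chr10:78042037-78042336 (plus strand, GRCm38.p6): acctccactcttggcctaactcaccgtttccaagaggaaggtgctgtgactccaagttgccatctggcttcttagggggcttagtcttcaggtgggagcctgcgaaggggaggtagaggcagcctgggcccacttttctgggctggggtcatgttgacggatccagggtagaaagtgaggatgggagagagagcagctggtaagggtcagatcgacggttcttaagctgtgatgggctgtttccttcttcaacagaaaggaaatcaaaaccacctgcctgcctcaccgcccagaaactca
Tet2 start, chr3:133544341-133544640 (minus strand, GRCm38.p6): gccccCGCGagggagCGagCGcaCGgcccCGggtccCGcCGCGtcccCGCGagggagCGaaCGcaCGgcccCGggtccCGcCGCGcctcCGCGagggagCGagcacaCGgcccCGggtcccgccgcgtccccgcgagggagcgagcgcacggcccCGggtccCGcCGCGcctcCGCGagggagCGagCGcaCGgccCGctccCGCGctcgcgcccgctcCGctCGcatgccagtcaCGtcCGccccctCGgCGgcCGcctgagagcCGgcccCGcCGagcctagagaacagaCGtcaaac
Tet3 start, chr6:83441629-83441928 (minus strand, GRCm38.p6): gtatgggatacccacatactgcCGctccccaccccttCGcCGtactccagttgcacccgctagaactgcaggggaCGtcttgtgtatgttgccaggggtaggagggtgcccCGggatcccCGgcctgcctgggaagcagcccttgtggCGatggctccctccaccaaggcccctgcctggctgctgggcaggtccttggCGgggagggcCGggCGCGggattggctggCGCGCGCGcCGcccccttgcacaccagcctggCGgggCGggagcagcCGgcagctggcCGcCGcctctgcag
Uhrf1 first start, chr17:56303087-56303386 (plus strand, GRCm38.p6): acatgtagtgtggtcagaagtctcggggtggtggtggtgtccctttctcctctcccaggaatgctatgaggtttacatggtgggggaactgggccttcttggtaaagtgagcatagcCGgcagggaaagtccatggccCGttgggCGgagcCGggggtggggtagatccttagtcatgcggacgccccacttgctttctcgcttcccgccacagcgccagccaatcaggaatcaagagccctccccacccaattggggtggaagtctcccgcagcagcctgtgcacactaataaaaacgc

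The Tet2 sequence held 57 CG dinucleotides, of which 46 were kept, and the downstream Dnmt1 start held 33, of which 23 were kept. The upstream Dnmt1 start held 2 and the first Dnmt3l start 6, with 0 kept in both. Over all promoters listed on chromosomes 1 to 19 the median was 7 CG, 37.6% had 4 or fewer and 18.95% had 25 or more. By that measure Dnmt3a (46 and 47 at its neighbouring starts), Tet2, the downstream Dnmt1 start, the second Uhrf1 start (33), Dnmt3b (30) and Tdg (26) fell in the CpG-rich class. Tet3 (22), the internal Dnmt3a start (18), Tet1 (17), the middle Dnmt1 start (12) and the first Uhrf1 start (12) lay below it. No kept CpG of the printed Tet2 promoter averaged more than 0.938% over the 8 mice, and none of the downstream Dnmt1 promoter more than 0.743%.

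Methylation at gene starts was near 0 in both groups. Of the 16 listed starts 14 had CpGs within 1 kb that were read in all 8 mice, and 11 of these averaged under 1%. Among the 9 main starts 7 lay under 0.5%, with Uhrf1 and Dnmt3l as the exceptions. Over 10869 protein-coding genes with a measured start, 85.1% were under 5% and 6.11% over 50%. Low starts are thus shared with most genes and are not particular to the methylation machinery. Over all 1063 CpGs read in every mouse, 800 (75.3%) averaged under 10%, 203 (19.1%) over 90% and 60 (5.64%) in between. The shares over all 1087161 such autosomal CpGs were 63.9%, 23.4% and 12.8%.

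**Figure D1:**
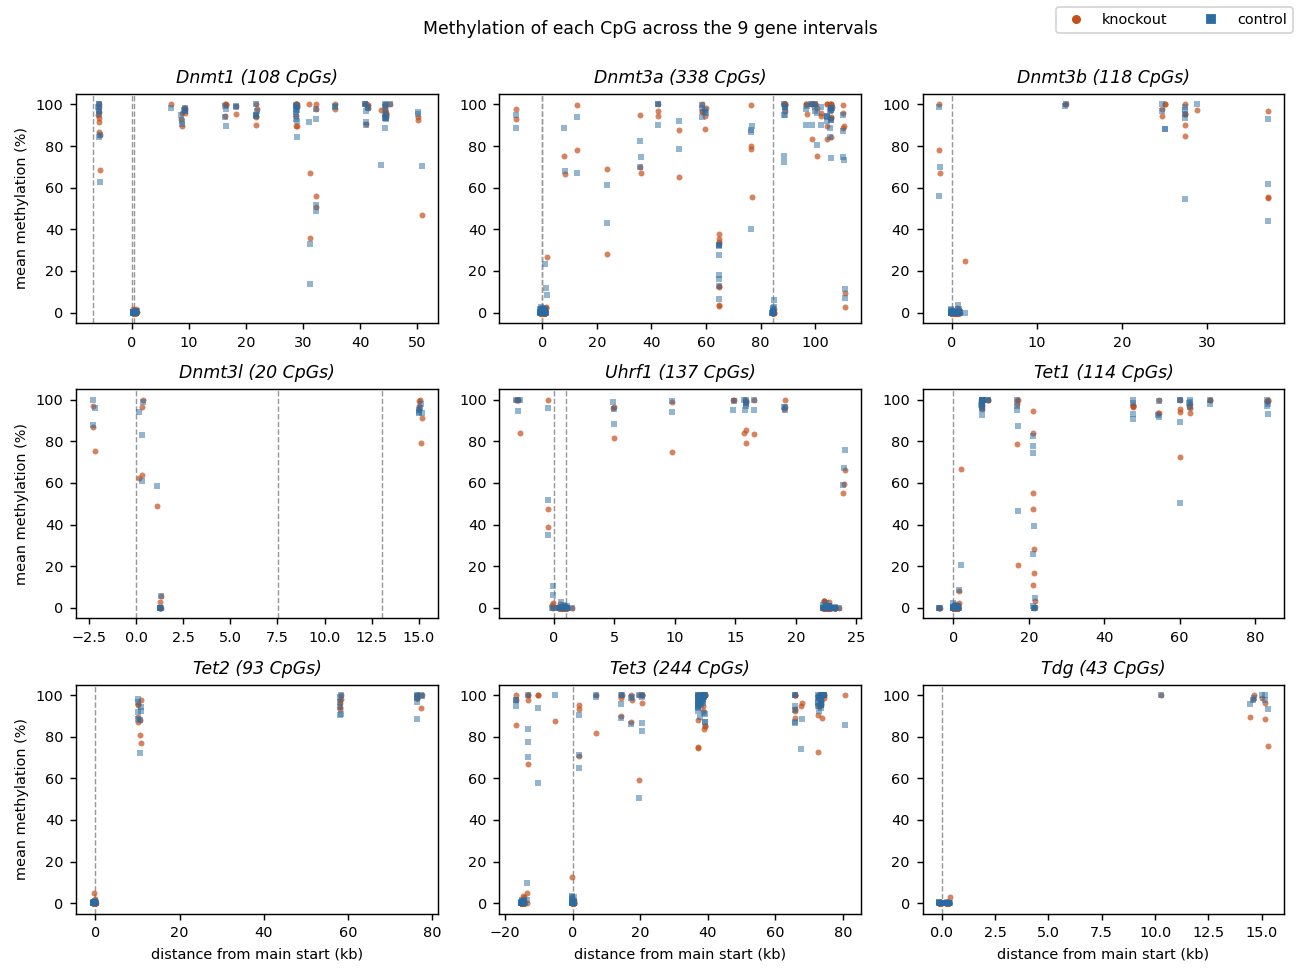
Mean methylation in percent of each kept CpG against its distance in kb from the gene's main start, for the 9 genes, with knockout means as circles and control means as squares (4 mice each) and listed starts as dashed lines. CpGs near 0% cluster at the starts of every gene but Dnmt3l, and CpGs elsewhere are split, with 200 of 439 (read in all mice) over 90% and 184 under 10%, among them the upstream Tet3 and downstream Uhrf1 groups.

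Knockout and control stem cells did not differ detectably over whole genes. Each gene's interval was given 1 level per mouse, the unweighted mean over its CpGs read in all 8 mice, and the levels were compared with limma over 11556 autosomal protein-coding genes. At an adjusted p under 0.05, 0 of the 9 genes passed, as did 0% of all genes tested. At an unadjusted p under 0.05 there was 1 gene of 9, Dnmt3b, against 4.45% of all genes (1.7% higher and 2.75% lower in knockout mice). Differences (knockout minus control) ran from -2.32 percentage points for Dnmt3l to 1.06 for Tet1, with a median of 0.05, beside -0.03 over all genes. In 5 of the 9 genes the knockout mean was higher. With CpGs weighted by coverage instead, the member median was -1.87 beside -1.35 over all genes. Dnmt1, Dnmt3a, Dnmt3b and Tet1 turned lower and Tdg higher in knockout mice. By limma 1 member other than Dnmt3b was then at an unadjusted p under 0.05, lower in knockout mice, beside 273 of 9814 genes. In order of level the intervals were Dnmt3l (61.8% over the 8 mice), Dnmt1 (55.3%), Tet1 (32.7%), Tet3 (27.98%), Tet2 (22.7%), Uhrf1 (14.1%), Dnmt3a (12.3%), Tdg (11.9%) and Dnmt3b (9.99%). Neighbours in that order overlapped among the mice from Uhrf1 down: Uhrf1 with Dnmt3a, Dnmt3a with Tdg, and Tdg with Dnmt3b. In knockout 45 Uhrf1 (12.5%) lay under Dnmt3a (13.2%), and Tdg (10.13%) under Dnmt3b (10.15%). The intervals differed in how many of their CpGs lay within 1 kb of a start, which was 98 of 111 for Dnmt3b and 40 of 95 for Dnmt1.

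**Figure D2:**
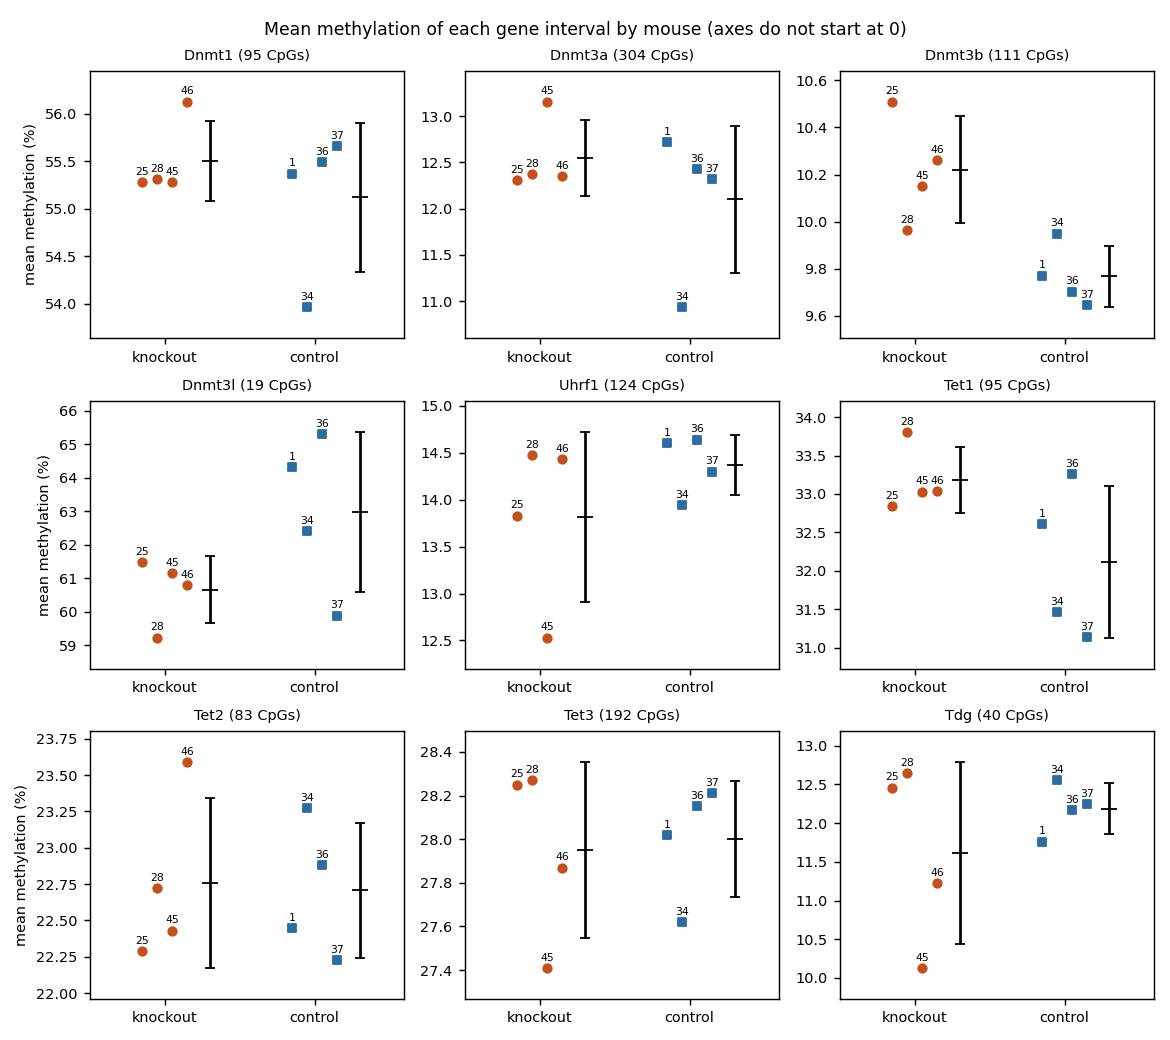
Mean methylation of each gene interval in percent, 1 point per mouse (numbers are mouse numbers), knockout left of control, with the group mean ± SD (n = 4) as a bar. In the Dnmt3b panel every knockout mouse lies above every control, while the groups overlap in the other 8 panels, whose axes span only a few percentage points.

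Single CpGs and 1 kb windows gave the same picture. Of the 1215 kept CpGs, 168 had a mean between 5 and 95% and were tested by a quasi-binomial model moderated with limma. At an adjusted p under 0.05, 0 of these 168 passed, against 0.00735% (23) of the 313039 CpGs tested genome-wide. At an unadjusted p under 0.05 there were 13, of which 7 were higher and 6 lower in knockout mice. The background for that count was 6.52% of all CpGs, 2.4% higher and 4.12% lower. The median difference of the 168 CpGs was 0.00 percentage points, against -0.90 over all CpGs. With limma on log2 ratios of methylated to unmethylated reads, 0 passed and 11 of 168 were at an unadjusted p under 0.05, 10 higher and 1 lower. Over all CpGs that fit gave 14481 of 313039, 7679 higher and 6802 lower. With means of 1 to 99% there were 41 of 351, of which 26 were higher and 15 lower. The count over all CpGs was then 51858 of 583436, 25810 higher and 26048 lower. Without control 37 there were 5 of 134, beside 12371 of 274866 over all CpGs.

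Windows of 1 kb with at least 3 CpGs read in all mice numbered 64 in the 9 genes. Of these 23 lay under 5%, 22 over 95%, and the remaining 19 were tested. At an adjusted p under 0.05, 0 of 19 passed, as did 0% of the 39903 windows tested genome-wide. At an unadjusted p under 0.05 there were 2, against 6.5% of all windows: 1 in Dnmt3b was higher in knockout mice (background 2.1%) and 1 in Uhrf1 lower (background 4.4%). Among the 19 tested windows these 2 were also the ones in which the groups did not overlap, against 3.48% of all tested windows. Of all 64 measured windows 4 did not overlap, the others being the Dnmt3b start (0.030 to 0.069% in knockout and 0.106 to 0.205% in control mice) and a Dnmt1 window at 20958001 (92.8 to 96.2% and 96.4 to 99.5%), both outside the tested range. The share without overlap was not counted over all measured windows of the genome. The count of 4 of 64 therefore has no background, and nothing is read from it. With edgeR and with limma on log2 ratios, likewise 0 windows passed and 2 were at an unadjusted p under 0.05. Control 34 was the lowest of the 8 mice in 5 of the 19 windows (26.3%, against 28% of all windows). The median SD among controls was 4.18 percentage points in the 19 windows and 4.5 over all windows.

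**Figure D3:**
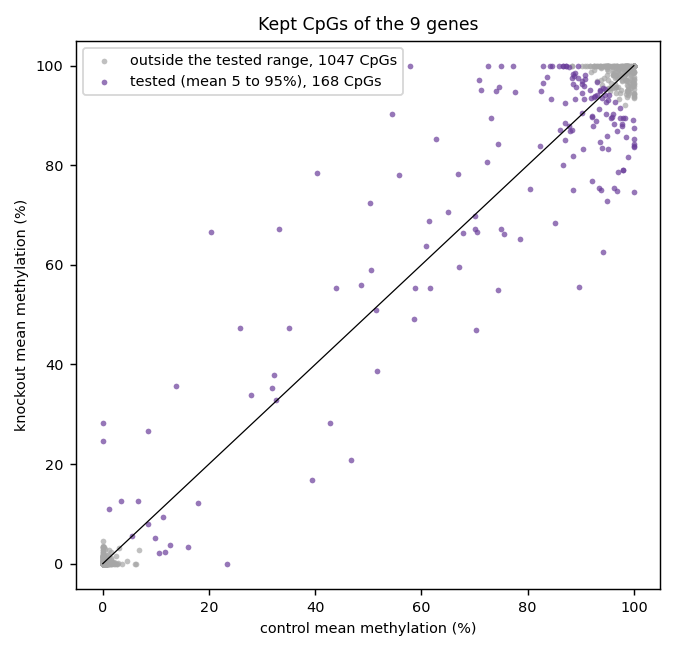
Mean methylation in percent of each kept CpG of the 9 genes, knockout on the vertical and control on the horizontal axis, with the 168 tested CpGs in colour, the other 1047 in grey and the line of equal levels. Points gather at both ends of the line, and tested CpGs scatter to either side of it.

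Dnmt1 (chr9:20907206-20959888, minus strand, mm10) has 3 listed starts. In mouse, an oocyte form of Dnmt1 is known to start from a separate first exon upstream of the one used in somatic cells. The 2 downstream starts share 39 CpGs within 1 kb, which averaged 0.177 ± 0.109% in knockout and 0.135 ± 0.094% in control mice (SD, n = 4 each). These 39 CpGs form a run of 625 bp in which no CpG averaged more than 1.16%. Within 1 kb of the upstream start 1 CpG was measured, and it was methylated in every mouse: 86.9, 92.8, 100 and 100% in knockout mice and 95.8, 99.04, 100 and 100% in controls. It lies 993 bp into the gene from that start, and no CpG of the printed upstream promoter was kept, so the level at that start itself was not measured. The gene body beyond 1 kb of any start averaged 94.9 ± 0.403% in knockout and 93.7 ± 1.43% in control mice over 52 CpGs, with 49 of them over 90%.

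Over the whole Dnmt1 interval, knockout mice had 55.3, 55.3, 55.3 and 56.1% and controls 55.4, 54.0, 55.5 and 55.7%. The groups overlapped, with a difference of 0.38 percentage points (95% interval -1.05 to 1.81, limma adjusted p = 0.995). The window with the smallest p lay downstream of the gene at chr9:20902001-20903000, where 3 of its 5 CpGs belong to the interval. It had 67.4, 77.1, 81.9 and 85.3% in knockout mice and 83.0, 80.4, 91.1 and 94.7% in controls, a difference of -9.35 points (moderated quasi-binomial adjusted p = 0.785). The mice overlapped, and 27 Dnmt1 CpGs were tested with 0 at an unadjusted p under 0.05.

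Uhrf1 (chr17:56303337-56323486, plus strand) has 2 listed starts about 1 kb apart. CpGs around the second averaged 0.085 ± 0.071% in knockout and 0.151 ± 0.111% in control mice over 48 CpGs (SD, n = 4 each). Around the first start the means were 4.01 ± 0.974% and 4.29 ± 0.196%. This higher value came from 3 CpGs upstream of the printed sequence, at 56302816, 56302845 and 56302865, whose means were 38.7, 100 and 47.3% in knockout and 51.7, 96.0 and 35.0% in control mice. From 56303204 on, a run of 53 CpGs over 1655 bp averaged 0.147% in knockout and 0.457% in control mice. In the printed sequence the CpG at 56303232 stood at 0, 8.68, 0 and 0% in knockout mice and 16.1, 2.82, 9.78 and 13.9% in controls. The groups overlapped there through knockout 28. The downstream flank held 56 CpGs at 3.57 ± 0.653% in knockout and 3.78 ± 0.755% in control mice, in a stretch that contains the gene boundary of Kdm4b, a histone demethylase gene annotated from 56325970.

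The body of Uhrf1 averaged 93.9 ± 3.82% in knockout and 97.2 ± 0.730% in control mice over 13 CpGs. In it lay the window chr17:56319001-56320000, with 85.2, 90.7, 89.6 and 95.9% in knockout mice and 96.0, 100, 98.2 and 99.2% in controls. Reads summed over its 4 CpGs were 68 to 1309 per mouse, with 17 at each CpG in control 34. Every knockout mouse was below every control, with a difference of -8.01 points between the means. The unadjusted p was 0.0267, and the moderated quasi-binomial adjusted p was 0.727, so the difference did not pass. Of the 4 CpGs read in all mice, 56319206 and 56319210 differed by -12.9 and -19.0 points, and 56319185 and 56319194 by -0.67 and 2.14. The lowest knockout mouse was number 45 at the CpG 56319206 (62.6%) and number 25 at 56319210 (48.2%), so different mice gave the low values at neighbouring CpGs. The moderated quasi-binomial adjusted p of the CpG 56319206 was 0.719. The window at chr17:56327001-56328000, inside Kdm4b, varied widely among controls: 61.8, 64.7, 53.1 and 56.3% in knockout mice, and 80.0, 53.4, 76.0 and 60.8% in controls (SD 12.6 points; adjusted p = 0.863). Over the whole Uhrf1 interval the levels were 13.8, 14.5, 12.5 and 14.4% in knockout mice and 14.6, 13.9, 14.6 and 14.3% in controls. The difference was -0.55 points (95% interval -1.59 to 0.49, limma adjusted p = 0.995).

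Dnmt3a (chr12:3801559-3914443, plus strand) had the largest number of CpGs. Its 2 neighbouring starts lie in a run of 237 CpGs over 1775 bp that averaged 0.138% in knockout and 0.158% in control mice, the longest run at a start after that of Tet1. The 230 CpGs within 1 kb of the main start averaged 0.141 ± 0.081% in knockout and 0.160 ± 0.030% in control mice (SD, n = 4 each). Another start, at 3891744, lies inside the gene. In mouse, a shorter Dnmt3a protein, abundant in embryonic stem and germ cells, is known to be made from an internal promoter. The 15 CpGs there had 0.241, 0.040, 0 and 0.474% in knockout mice and 1.31, 0.513, 0.139 and 1.74% in controls. In knockout 45 this was 0 of 4719 reads summed over the 15 CpGs. The limit from that count is 0.0636%, for counting error only. It is too tight, because a read is counted at each CpG it covers. Both groups were near 0 at this start, and the mice overlapped.

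The body of Dnmt3a averaged 64.0 ± 2.77% in knockout and 61.8 ± 4.35% in control mice over 53 CpGs. It was less uniform than the bodies of Dnmt1 or Tet2: 12 of its CpGs lay under 10%, 18 between 10 and 90% and 23 over 90%. A partly methylated group of CpGs, beginning 64596 bp downstream of the main start, was picked after its values were seen. The window chr12:3871001-3872000 had 8 CpGs, with 1395 to 2906 reads per mouse summed over them. In it knockout mice had 11.8, 22.1, 35.5 and 22.1% and controls 26.4, 8.75, 34.6 and 29.5%. Knockout 25 and control 34 were the lowest of their groups there, as they were in coverage of methylated DNA, whose part in these levels was not tested. The means differed by -1.95 points (moderated quasi-binomial adjusted p = 0.978). This pair was also the 2 lowest of all 8 mice there. That held in 2 of the 19 member windows (10.5%, against 10.2% of all windows), both of them in Dnmt3a. In the Dnmt1 window at 20902001 the pair was lowest within each group, but not the 2 lowest of all 8 mice.

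The other window of that kind lay downstream of Dnmt3a at chr12:3917001-3918000. Knockout mice had 29.5, 51.6, 65.3 and 58.1% and controls 54.3, 14.9, 47.4 and 43.1%, with an SD of 15.5 points in knockout and 17.3 points in control mice. The groups overlapped, with knockout mice 45 and 46 above every control and control 34 below every knockout mouse. The difference of 11.2 points (adjusted p = 0.858) was 2.84 over the same 3 CpGs without control 34, and -1.004 when the 2 CpGs not read in control 34 also entered. In it, CpG 3917577 stood at 100, 100, 100 and 83.1% in knockout mice and 83.5, 76.1, 71.7 and 67.3% in controls, and its neighbour 3917599 at 81.5, 81.2, 100 and 95.1% against 87.2, 60.7, 84.0 and 60.5%. Their adjusted p-values were 0.746 and 0.760. The remaining CpG of the window, 3917997, was at 2.68% in knockout and 6.81% in control mice, so the window joins methylated and nearly unmethylated CpGs. A further CpG near the end of the gene, 3912465, was at 100% in every knockout mouse and at 85.3, 100 and 68.5% in controls 1, 36 and 37, with control 34 not read (adjusted p = 0.755). Over the whole Dnmt3a interval the levels were 12.3, 12.4, 13.2 and 12.4% in knockout mice and 12.7, 10.9, 12.4 and 12.3% in controls. The difference was 0.45 points (95% interval -0.51 to 1.41, limma adjusted p = 0.995).

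Dnmt3b (chr2:153649411-153687730, plus strand) was the one gene whose interval levels did not overlap between groups. Knockout mice had 10.5, 9.96, 10.2 and 10.3% and controls 9.77, 9.95, 9.70 and 9.65%. The gap between the lowest knockout and the highest control mouse was smaller than the spread within either group. The means differed by 0.45 points (95% interval 0.011 to 0.892, unadjusted p = 0.0456), and the limma adjusted p was 0.995. The unadjusted p stayed under 0.05 without knockout 28 but ran from 0.0623 to 0.122 without any other single mouse. Weighted by coverage, the difference turned to -1.69 points. Of all gene intervals tested, 2.68% did not overlap between groups. At the start the order was the other way, as its 98 CpGs averaged 0.086 ± 0.059% in knockout and 0.181 ± 0.112% in control mice (SD, n = 4 each), in a run of 99 CpGs over 1025 bp. The body, with 10 CpGs, had 90.4, 87.8, 89.1 and 84.8% in knockout mice and 84.3, 83.9, 84.3 and 84.2% in controls.

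The window chr2:153676001-153677000 in the body of Dnmt3b had the smallest p of the 19. Knockout mice had 97.7, 100, 87.4 and 89.0% and controls 77.2, 83.8, 79.8 and 78.7%. Reads summed over its 3 CpGs were 111 to 1441 per mouse, with 37 at each CpG in control 34. All knockout mice lay above all controls, with a difference of 13.7 points. The unadjusted p was 0.00803 and the moderated quasi-binomial adjusted p was 0.639. The difference sat at the CpG 153676863, where knockout mice had 93.6, 100, 67.4 and 100% and controls 45.04, 51.4, 60.6 and 61.2%. Its exact 95% binomial intervals were 63.4 to 71.3% in knockout 45 and 57.0 to 65.3% in control 37, the closest pair of the 2 groups, so they overlapped in part. The CpGs 153676889 and 153676900, the next 2 downstream, differed by 0.08 and -2.32 points. The CpG 153676863 differed by 35.7 points (adjusted p = 0.698), and without knockout 45 by 43.3 points with an adjusted p of 0.00166. A second CpG, 153648013, upstream of the start, behaved alike in that respect. It stood at 92.9, 84.6, 48.1 and 86.9% in knockout mice and 51.1, 91.3, 42.1 and 39.0% in controls, and its adjusted p was 0.749 with all mice and 0.0357 without knockout 45. These were the 2 member CpGs that passed when a mouse was left out.

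**Figure D4:**
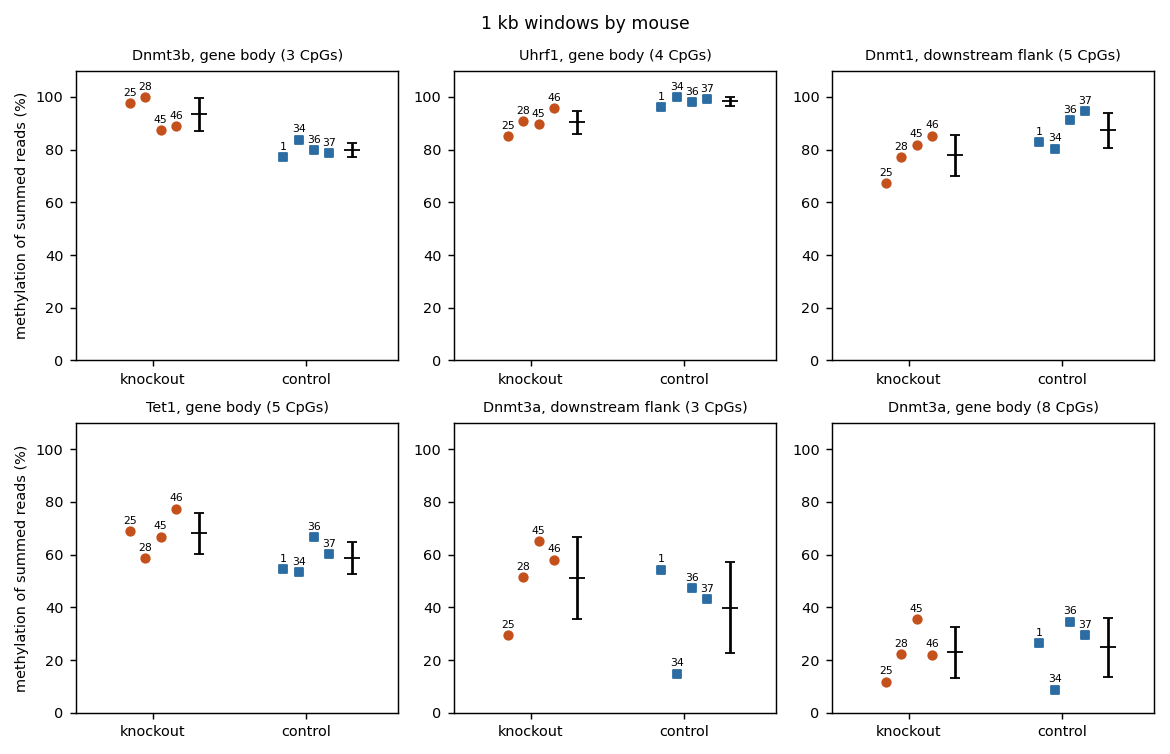
Methylation in percent of summed reads in 6 windows of 1 kb, 1 point per mouse (numbers are mouse numbers), knockout left of control, with the group mean ± SD (n = 4) as a bar. The groups are apart in the Dnmt3b body (87.4 to 100% in knockout, 77.2 to 83.8% in control mice) and the Uhrf1 body, and overlap in the other 4 windows.

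Dnmt3l (chr10:78042287-78063622, plus strand) was the one gene with no unmethylated run found at its own start. The 4 CpGs measured within 1 kb of the first start lie 183 to 364 bp into the gene. They had 78.9, 76.0, 100 and 67.9% in knockout mice and 94.4, 77.3, 89.8 and 75.3% in controls. Both groups were highly methylated at these CpGs and overlapped. The level at the start itself was not measured. The other 2 listed starts had no CpG read in all mice, and the promoter sequences of the 3 Dnmt3l starts held 6, 4 and 3 CG with 0 kept. An unmethylated run of 6 CpGs over 50 bp, at 1.38% in knockout and 0.926% in control mice, was centred 1286 bp into the gene. It coincides with the start of Aire listed at 78043610, a gene whose annotated body overlaps this interval. The window chr10:78057001-78058000 in the gene body had 97.2, 89.0, 92.0 and 99.3% in knockout mice and 94.7, 98.8, 94.5 and 92.0% in controls (difference -0.61 points, adjusted p = 0.965). In it, CpG 78057396 stood at 89.4, 55.7, 71.0 and 100% in knockout mice and 100, 100, 91.9 and 100% in controls, with a difference of -19.0 points and an adjusted p of 0.755. Of its 4 neighbours within 100 bp, 1 was lower in knockout mice too. The whole Dnmt3l interval rested on 19 CpGs, with 61.5, 59.2, 61.2 and 60.8% in knockout mice and 64.3, 62.4, 65.3 and 59.9% in controls. The difference of -2.32 points (95% interval -5.15 to 0.50, limma adjusted p = 0.995) was the largest in size of the 9 intervals. It was -11.6 points when weighted by coverage (adjusted p = 0.999), -1.21 with 1 kb flanks and -1.27 with a minimum of 20 reads.

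**Figure D5:**
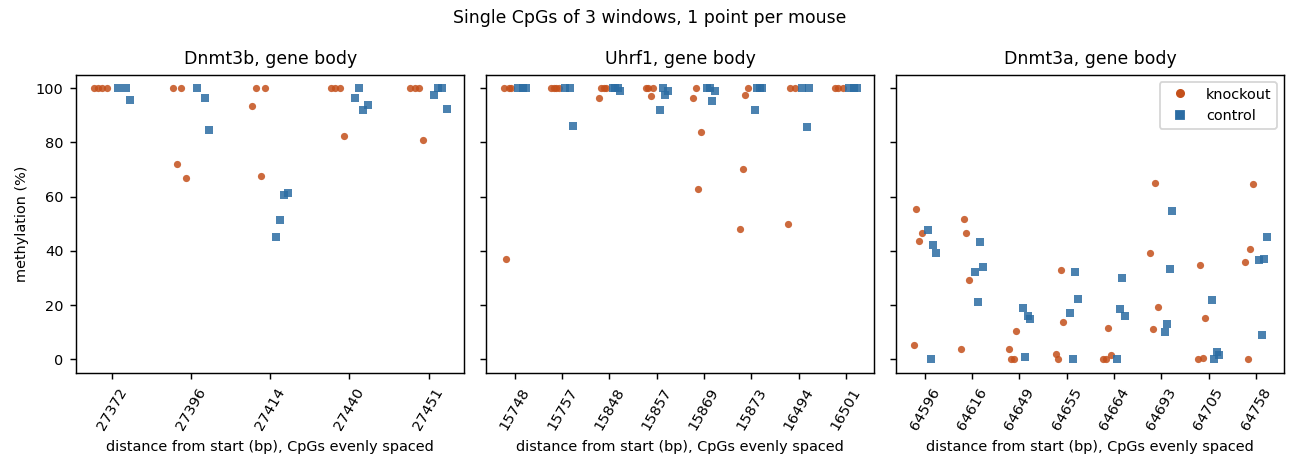
Methylation in percent of each kept CpG in the Dnmt3b, Uhrf1 and Dnmt3a body windows, 1 point per mouse, knockout circles left of control squares, with CpGs evenly spaced and labelled by distance in bp from the main start. The Dnmt3b groups separate at 1 CpG and mix at its neighbours, and the Dnmt3a CpGs spread widely in both groups, from 0 to 65.2% in knockout and 0 to 54.6% in control mice.

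Tet1 (chr10:62804570-62887469, minus strand) had 41 CpGs within 1 kb of its start at 0.144 ± 0.089% in knockout and 0.150 ± 0.096% in control mice (SD, n = 4 each). Its unmethylated run was the longest in bp, 5234 bp with 60 CpGs, but 3451 bp of it had no kept CpG, so its length is not established. The gene body averaged 56.1 ± 0.735% in knockout and 54.2 ± 1.90% in control mice over 49 CpGs, of which 19 lay under 10% and 24 over 90%. The window chr10:62866001-62867000 in the gene body had 69.1, 58.8, 66.9 and 77.5% in knockout mice and 54.6, 53.3, 66.6 and 60.1% in controls. The groups overlapped, with a difference of 9.41 points (moderated quasi-binomial adjusted p = 0.854). Its CpGs did not move together, since 62866120 differed by 21.5 points and 62866302 by -19.5. The window chr10:62827001-62828000 was uneven in both groups, with 94.6, 95.7, 77.4 and 93.9% in knockout mice and 95.8, 75.0, 100 and 69.2% in controls (adjusted p = 0.990). Reads summed over its 4 CpGs were 84 to 287 per mouse, with 21 at each CpG in control 34. Over the whole Tet1 interval the levels were 32.8, 33.8, 33.0 and 33.0% in knockout mice and 32.6, 31.5, 33.3 and 31.1% in controls. The difference was 1.06 points (95% interval -0.23 to 2.35, limma adjusted p = 0.995).

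Tet2 (chr3:133463677-133545136, minus strand) was divided between an unmethylated start and a methylated body. Its start had 63 CpGs read in all mice, at 0.169, 0.321, 0.063 and 0.088% in knockout mice and 0.068, 0.059, 0.410 and 0.051% in controls. Every mouse was under 0.5%, with control 36 the highest. All 72 kept CpGs of its 770 bp run, which takes in the printed promoter, averaged 0.142% in knockout and 0.137% in control mice. The body averaged 93.9 ± 2.51% and 93.8 ± 1.86% over 20 CpGs (SD, n = 4 each). The window of smallest p, chr3:133533001-133534000, had 85.9, 82.5, 78.9 and 94.5% in knockout mice and 84.6, 87.7, 82.6 and 86.3% in controls, a difference of 0.18 points (adjusted p = 0.980). The whole Tet2 interval had 22.3, 22.7, 22.4 and 23.6% in knockout mice and 22.5, 23.3, 22.9 and 22.2% in controls. The difference was 0.05 points (95% interval -0.88 to 0.99, limma adjusted p = 0.998).

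Tet3 (chr6:83362373-83457208, minus strand) had 2 unmethylated stretches. At the start listed in RefSeq's promoter table, 44 CpGs averaged 0.484 ± 0.268% in knockout and 0.384 ± 0.139% in control mice (SD, n = 4 each). The exception in the printed sequence was the second capital CG, at 83441890, with 9.86, 0, 23.3 and 17.2% in knockout mice and 5.61, 6.91, 0 and 0.873% in controls. Its groups overlapped through knockout 28. The second stretch, chr6:83455235-83457052, held 104 CpGs over 1818 bp at 0.165% in knockout and 0.235% in control mice. Its centre lies at -14905 bp from the listed start, at the upper end of the annotated gene, and no start was listed for Tet3 there. It held more CpGs than the listed start.

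The rest of Tet3 was mostly methylated. By the quasi-binomial model, 4 of the 36 Tet3 CpGs tested were at an unadjusted p under 0.05. The share over all CpGs was 6.52%, and Dnmt3a also had 4, of 44 tested. The window chr6:83458001-83459000, upstream of the gene, had 94.3, 100, 83.6 and 92.0% in knockout mice and 96.1, 98.1, 93.5 and 97.4% in controls (difference -3.84 points, adjusted p = 0.805). Its CpG 83458468 stood at 89.0, 100, 67.2 and 86.9% in knockout mice and 94.6, 96.3, 90.6 and 98.3% in controls. In the body, CpG 83404573 stood at 91.7, 45.6, 62.0 and 100% in knockout mice and 99.3, 100, 88.3 and 100% in controls. The differences were -9.17 and -22.1 points, with adjusted p-values of 0.753 and 0.755, and both sets of mice overlapped. CpG 83451994 was at 100% in knockout mice 25, 45 and 46 and at 74.7, 0, 82.1 and 74.3% in controls. The value of control 34 was 0 of 35 reads, which allows a level of up to 8.57%, and knockout 28 was not read (adjusted p = 0.760). The whole Tet3 interval had 28.2, 28.3, 27.4 and 27.9% in knockout mice and 28.02, 27.6, 28.2 and 28.2% in controls. The difference was -0.05 points (95% interval -0.87 to 0.77, limma adjusted p = 0.998).

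Tdg (chr10:82629814-82650799, plus strand) had 35 CpGs at its start with 0.168 ± 0.177% in knockout and 0.067 ± 0.029% in control mice (SD, n = 4 each), in a run of 498 bp. Only 5 CpGs of the gene body were read in all mice. They averaged 99.4, 98.2, 80.0 and 89.4% in knockout mice and 93.6, 100, 97.1 and 97.3% in controls, so knockout 45 was lowest. No window of Tdg was in the tested range, and 3 CpGs were tested with 0 at an unadjusted p under 0.05. The whole Tdg interval had 12.5, 12.7, 10.1 and 11.2% in knockout mice and 11.8, 12.6, 12.2 and 12.3% in controls. The difference was -0.57 points (95% interval -1.83 to 0.69, limma adjusted p = 0.995).

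A wider list of 40 genes that act beside these enzymes was examined in the same way. It holds readers of methylated DNA, cofactors of Dnmt1, base excision repair enzymes and enzymes that set substrate or cofactor levels. Of these 39 were found in the gene table and 30 had a tested interval. By limma, 0 of the 30 passed and 1 was at an unadjusted p under 0.05 (background 4.45%). Knockout means were higher in 12 and lower in 18, with a median difference of -0.14 points beside -0.03 over all genes. That gene was Nsd1, a histone H3 lysine 36 methyltransferase, at 9.45% in knockout and 10.2% in control mice (difference -0.70 points, adjusted p = 0.995). Mbd1, which binds methylated DNA, had 11.8% in knockout and 13.1% in control mice, and Trim28, a corepressor recruited by zinc finger proteins, had 22.8% and 23.5%, neither past the test (adjusted p = 0.995 each). All 29 measured starts of the list averaged under 5%, with Uhrf2, the paralogue of Uhrf1, at 4.02% in knockout and 4.08% in control mice and Xrcc1, a repair scaffold, at 3.85% and 4.23%.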

How the data were processed

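Enhanced reduced representation bisulfite sequencing libraries of sorted stem cells from 8 mice, 4 per group, were used, with 1 table per mouse. The authors' tables hold 2 units for each cytosine: coverage, a whole-number count of reads with a minimum of 10, and the percent of them reading C or T, as deposited and per the file headers. CASAVA 1.8.2, Bismark and mm10 are named in the submitters' processing notes; their settings and any removal of duplicates are not stated there. Without molecular identifiers, reads overstate the number of molecules, so intervals and limits of a count of 0 (3 reads of the total) cover counting error only. Read numbers of windows and starts are sums over CpGs, in which a read counts at each CpG it covers.

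Methylated and unmethylated reads were recovered as coverage times percent, and strands were merged. Gene and promoter coordinates were RefSeq's for GRCm38.p6, whose promoter sequences had CG at 186663 of the 186663 kept CpGs within them. No exon annotation was used, so exons and introns are not given. All 9 symbols matched. CpGs with a mean of 5 to 95%, and 1 kb windows with at least 3 CpGs read in all 8 mice, were tested on chromosomes 1 to 19 by a logistic model of reads on genotype, with quasi-binomial dispersion moderated by limma 3.58.1 (R 4.3.3) and not under 1. Gene intervals (10 or more CpGs) were tested with limma on mean percentages, which weights CpGs equally whatever their coverage. Benjamini-Hochberg adjustment ran over all features tested, at 0.05. edgeR 4.0.16 and limma on log2 ratios with 1 read added were alternatives for windows, and the models were tested on simulated data.

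The members and lists were chosen with earlier results of these data known. Named were all 9 genes; per gene the windows at an unadjusted p under 0.05 or else that of smallest p; the 3 windows of highest control SD; the 10 CpGs of smallest p; and the 3 list genes of smallest p.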

Additional observations from a re-analysis of the deposited data

Results flagged for a closer look

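Among 89 sets of 4 mice of a group, 10 held a value set apart from the other 3 by more than Dixon's 95% limit. That limit flags about 1 set in 20 for independent, normal values. These sets share CpGs, include CpGs named for a small p, and hold levels capped at 100%. The count of 10 therefore cannot be set against that rate. Knockout 46 was highest in the Dnmt1 interval at 56.1%, against 55.3% in the other knockout mice, and control 34 was lowest there at 54.0%, against 55.4 to 55.7%. Knockout 45 was highest in the Dnmt3a interval at 13.2%, against 12.3 to 12.4%. In the Nsd1 interval 1 knockout mouse had 10.3%, against 9.14 to 9.23%. Knockout 45 was lowest in the Tet1 window at 62827001 at 77.4%, against 93.9 to 95.7%. Knockout 46 was lowest at the Dnmt3a CpG 3917577 at 83.1%, the others being at 100%. Control 36 was highest at the Tet2 start at 0.410%, against 0.0511 to 0.0683%, and lowest at the Tet3 CpG 83404573 at 88.3%, against 99.3 to 100%, and at the Dnmt3l CpG 78057396 at 91.9%, against 100%. Control 34 was at 0% at the Tet3 CpG 83451994, against 74.3 to 82.1%.

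Outside the autosomes, Y cytosines numbered at least 7.90 per 10000 listed in every knockout mouse and 1.16 to 1.83 in the controls, as given with the libraries above.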

How the results depend on the processing

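Genome-wide counts at an adjusted p under 0.05 moved with the settings while member counts stayed at 0, except that 2 Dnmt3b CpGs passed without knockout 45 (43.3 and 32.3 points). CpG counts were 23 as reported, 40 with 20 reads, 0 with means of 1 to 99%, 1 without CpGs of extreme coverage, 0 with limma, 14 without knockout 25 and control 34, and 1 to 191 with 1 mouse left out (191 without knockout 45). Window counts were 0 as reported, 6 with means of 1 to 99%, 6 without knockout 25 and control 34, and 0 to 32 with 1 mouse left out (32 without control 34). Gene interval counts were 0 at every setting run. Weighted by coverage, and likewise in the summed-read model, interval differences turned to -3.46 points for Dnmt1, -0.34 for Dnmt3a, -1.69 for Dnmt3b, -2.67 for Tet1 and 1.45 for Tdg; libraries differed in coverage of methylated DNA, whose part was not tested. With 20 reads Tet2 gave -0.028 and Tet3 0.24. Tet3 gave 0.71 over all kept CpGs and 0.28 without knockout 25 and control 34. With 1 mouse or that pair left out, differences ran from -0.23 to 0.39 for Tet2, from -0.051 to 0.28 for Tet3, from -2.83 to 2.35 for the Tet2 window 133533001, from -2.26 to 0.67 for the Dnmt3l window 78057001 and from -1.004 to 18.4 for the Dnmt3a window 3917001. The cause of these changes was not tested. The unadjusted p of the Dnmt3b interval exceeded 0.05 with 1 kb flanks, weighted by coverage, in the summed-read model, without knockout 25 and control 34, and without any single mouse but knockout 28. The Dnmt3l interval kept its sign but ran from -11.6 to -1.21 points. Leaving out a mouse also changes which CpGs enter. No paired analysis was possible because the groups share no replicate numbers. Differences of single CpGs are limited by few mice and few reads.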
